A study of Danio rerio with 24 samples.

Results

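Cells sorted as GFP+ were compared with cells sorted as GFP- from the same kind of zebrafish embryo at 3 days post fertilization (dpf). The comparison used 3 GFP+ and 3 GFP- arrays, 6 of the 24 arrays of a study that sampled both sorts at 2, 3, 4 and 6 dpf. All 15502 probe sets that are not array controls, of 15617 on the array, were compared by the difference of the 2 group means. The embryos of every group were homozygous for the transgene Tg(XlEef1a1:GFP)s854 and were kept from 1 dpf in medium with 1-phenyl-2-thiourea (PTU), which blocks pigment. GFP in this line is driven by a promoter of the Xenopus gene Eef1a1, a translation elongation factor, and the study uses it to follow organs of the gut. Embryos were dissociated together with trypsin, EDTA, proteinase K, collagenase and a tissue grinder, strained, and sorted by fluorescence. A sort of this kind holds several cell types, and GFP- cells are the rest of the embryo rather than a tissue. RNA was amplified into biotinylated cDNA for an Affymetrix zebrafish array. Nothing in the labels says whether replicates were separate clutches, so the p-values may measure only technical spread.

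The liver, the pancreas and the lining of the gut all arise from the endoderm. In zebrafish the liver makes most plasma proteins, the acinar cells of the exocrine pancreas make inactive digestive enzymes called zymogens, and enterocytes of the intestine take up fat and peptides. Outside the endoderm the embryo at this stage is rich in neurons, retina, muscle, skin and connective tissue, and cone photoreceptors are adding the proteins that turn light into a nerve signal.

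Values are scores on which every array has its median at 0 and its standard deviation (SD) at 1, and differences are GFP+ minus GFP- in units of 1 array SD. No source used here gives the log base behind the scores, so no fold changes are stated. The median standard error (SE) of a difference was 0.137. Arrays of the same sort at 3 dpf correlated at 0.955 to 0.978 over all probe sets, and GFP+ with GFP- arrays at 0.819 to 0.872. The 3' minus 5' score of the GAPDH control probe sets, a sign of RNA quality, was 0.295, 0.097 and 0.429 on the GFP+ arrays and 0.126, 0.29 and 0.21 on the GFP- arrays. These ranges overlapped, whereas the GAPDH 3' score itself was lower on every GFP+ array (1.476, 0.839 and 1.947) than on every GFP- array (3.02, 2.78 and 3.024).

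Markers of 12 cell types were summed on each array. These markers were chosen with earlier results of these data known, so the sums are no independent check of what each sort held. The 6 measured hepatocyte markers, genes of liver cells, summed to 17.24, 16.31 and 15.96 on the GFP+ arrays and 4.63, 5.8 and 1.89 on the GFP- arrays. The 6 exocrine pancreas markers summed to 15.14, 13.85 and 14.15 on the GFP+ arrays and 3.43, 2.91 and 1.7 on the GFP- arrays, and the 4 intestine markers to 9.63, 9.2 and 9.02 on the GFP+ arrays and 3.31, 4.56 and 3.15 on the GFP- arrays. For these 3 digestive cell types every GFP+ array stood far above every GFP- array. The GFP- sums were above 0 too, where a score of 0 is the array median and not absence. Photoreceptor markers went the other way, with 4.3, 1.32 and -0.17 on the GFP+ arrays and 12.98, 15.7 and 13.68 on the GFP- arrays. Neuron markers summed to 3.74, 3.92 and 3.01 on the GFP+ arrays and 13.72, 11.65 and 12.59 on the GFP- arrays. Among the GFP+ arrays, array 1 had the highest photoreceptor sum and array 3 the lowest. Skeletal muscle markers summed to 0.25, -0.49 and 2.38 on the GFP+ arrays and 3.6, 3.67 and 5.96 on the GFP- arrays, epidermis markers to 7.23, 6.48 and 10.53 on the GFP+ arrays and 8.0, 10.38 and 12.16 on the GFP- arrays and erythroid markers to -0.13, -0.09 and 1.86 on the GFP+ arrays and 0.73, 2.56 and 5.78 on the GFP- arrays. In each of these types array 3 was the highest of its sort in both sorts, and the sums of the sorts overlapped for epidermis and erythroid cells. Leukocyte markers summed to 2.4, 2.64 and 3.1 on the GFP+ arrays and 4.38, 5.64 and 5.54 on the GFP- arrays. The 5 leukocyte markers did not move together. The largest difference was that of lyz (-2.77), beside coro1a (-0.97), lcp1 (-0.22), spi1b (0.09) and mpx (1.4). Connective tissue markers summed to 2.13, 1.56 and 3.79 on the GFP+ arrays and 4.99, 3.91 and 5.11 on the GFP- arrays. The connective tissue sums did not overlap but came close at GFP+ array 3 and GFP- array 2. Endocrine pancreas markers summed to 5.47, 5.3 and 7.47 on the GFP+ arrays and 3.69, 4.6 and 3.91 on the GFP- arrays. Of these 4 markers gcga, sst2 and ins differed by 1.16, 0.9 and 0.87, but pax6b by -0.91 ± 0.18 (SE). Endothelium markers summed to -1.77, -0.68 and -1.13 on the GFP+ arrays and -0.34, -0.39 and -0.23 on the GFP- arrays, and 2 of the 3, tie1 and kdrl, were below the lower quartile of all 3 GFP+ arrays. With RNA from many cells pooled, fewer cells of a type and less RNA per cell cannot be told apart.

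**Figure D1:**
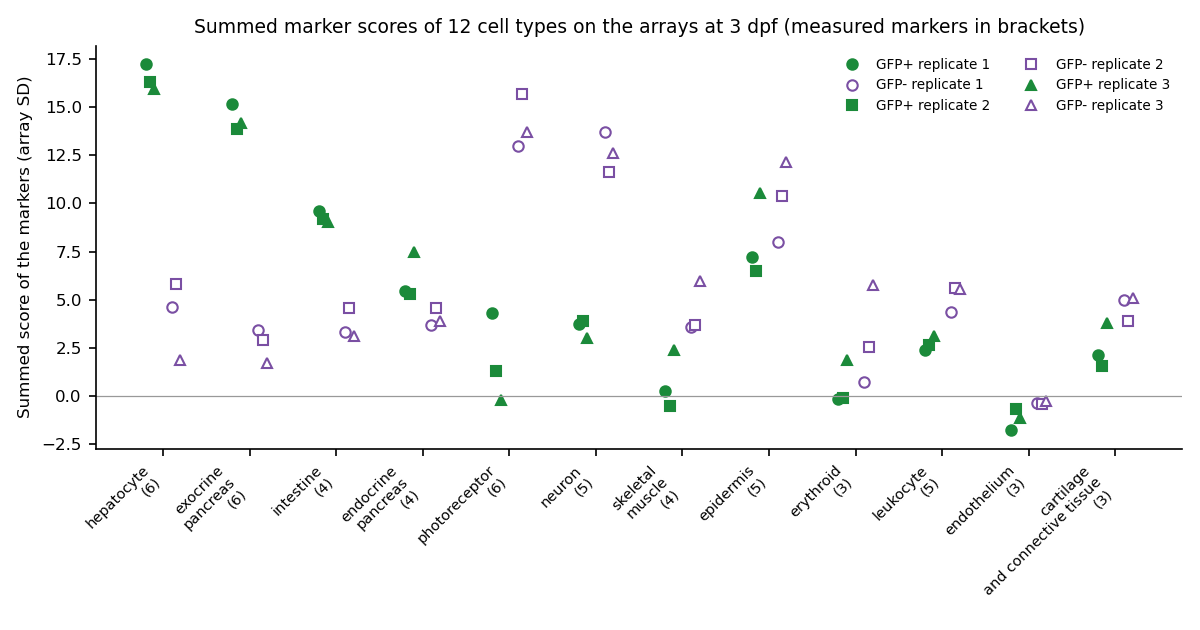
Summed scores (array SD) of the measured markers of 12 cell types on the 3 GFP+ arrays (filled) and the 3 GFP- arrays (open), with the replicate number shown by the shape. Hepatocyte sums were 15.96 to 17.24 on GFP+ arrays and 1.89 to 5.8 on GFP- arrays, and neuron sums were 3.01 to 3.92 and 11.65 to 13.72.

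At an adjusted p under 0.05 by limma, 4103 of the 15502 probe sets differed between the sorts, 26.5% of those tested. GFP+ cells were higher for 2244 (14.5%) and lower for 1859 (12.0%). Counting 1 probe set for each of 8793 named genes, 1626 genes were higher (18.5%) and 1050 lower (11.9%), and these shares are the background for every list below. The median difference over those genes was 0.051. The 3 GFP+ and the 3 GFP- arrays did not overlap for 6741 probe sets (43.5%), with GFP+ above in 3988 of them (25.7% of all). Large differences were few: 67 probe sets were higher by at least 2 array SD (0.432%) and 33 were lower by as much (0.213%). A single gene compared by exact permutation, 3 arrays against 3, cannot give a two-sided p under 0.1, so every call rests on the limma model. Of 230 genes with more than 1 called probe set, only the lysosomal enzyme gene aga had calls in both directions, with 0.6 ± 0.17 (SE) on a first probe set and -0.45 ± 0.14 on another.

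Many of the 20 named genes furthest on the GFP+ side code for proteins that the liver secretes into plasma. The fibrinogen chain gene fgb, whose product forms the fibres of a clot, scored 2.8, 2.65 and 2.4 on the GFP+ arrays and 0.06, 0.39 and -0.36 on the GFP- arrays. All GFP+ arrays were above 2 and all GFP- arrays near the array median. The difference was 2.59 ± 0.37 array SD (SE, n = 3 arrays in each sort; adjusted p = 2.75e-05). The second chain, fgg, scored 3.03, 2.64 and 2.72 on the GFP+ arrays and 0.46, 0.82 and -0.26 on the GFP- arrays and differed by 2.46 ± 0.38 (adjusted p = 6.33e-05). For ambp, the precursor of a plasma protease inhibitor, the scores were 2.76, 2.26 and 2.53 on the GFP+ arrays and 0.22, 0.34 and -0.19 on the GFP- arrays, and the difference was 2.39 ± 0.41 (adjusted p = 0.000189). In all 3 genes GFP- array 3 was the lowest of the 6 arrays, as it was in the hepatocyte sum. Without that array fgb differed by 2.39 array SD, the smallest value over the 6 fits that left out 1 array each.

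Of 26 measured plasma and carrier protein genes, 20 were higher and 1 lower, with a median difference of 1.65 against 0.051 over all genes. After ambp, the largest were apom (2.33 ± 0.38), a small lipoprotein component, itih2 (2.32 ± 0.34), a heavy chain of an enzyme inhibitor, afp4 (2.27 ± 0.31), hp (2.23 ± 0.35), the haemoglobin scavenger haptoglobin, and shbg (2.11 ± 0.33), which carries sex steroids. The haptoglobin scores were 2.52, 2.39 and 2.2 on the GFP+ arrays and 0.26, 0.21 and -0.04 on the GFP- arrays, and the sorts were more than 1 array SD apart. The exception was the growth factor gene igf1, at -0.33 ± 0.1 (adjusted p = 0.0234). Its scores were -0.44, -0.34 and -0.48 against -0.27, 0.1 and -0.1, close to each other, and it was not called without GFP+ array 1 or 3 or GFP- array 2 or 3 (adjusted p 0.0538 to 0.132) or after quantile normalization (adjusted p 0.05) or in a fit of the 6 arrays of 3 dpf alone. Retinol binding protein 4, rbp4, had a difference of 0.04 and was not called.

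Clotting genes were higher in 12 of 15 cases and lower in 0 (median 0.98). The higher count was 9 to 12 when 1 array was left out. In the 6 such fits f7 was called in 2, and f7i and cpn1 in 4 each. Besides the fibrinogen genes, kng1 (kininogen) differed by 2.23 ± 0.29, fga by 2.14 ± 0.32, the clotting factor gene f5 by 2.09 ± 0.3 and plg, the precursor of the clot dissolving enzyme plasmin, by 2.03 ± 0.24. Plasminogen scored 3.14, 3.37 and 3.1 on the GFP+ arrays and 1.14, 1.61 and 0.77 on the GFP- arrays, so that it was well above the median in GFP- cells too. Complement genes, which act in innate defence, were higher in 9 of 16 cases and lower in 1 (median 1.14). Pore forming c9 differed by 2.18 ± 0.36, the factor H like gene cfhl4 by 2.03 ± 0.25, the central component gene c3a.1 by 1.98 ± 0.27 (0.29 on another probe set, not called) and the mannose binding lectin gene mbl2 by 1.78 ± 0.25. Scores of c3a.1 were 1.81, 1.59 and 1.39 on the GFP+ arrays and -0.29, -0.52 and -0.36 on the GFP- arrays. No GFP- array reached the median, and no GFP+ array was under 1 array SD. The lower gene was cfp, properdin, which white blood cells make in mammals, at -0.56 ± 0.16 (adjusted p = 0.0102). It was not called without GFP+ array 2 (adjusted p 0.0577).

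**Figure D2:**
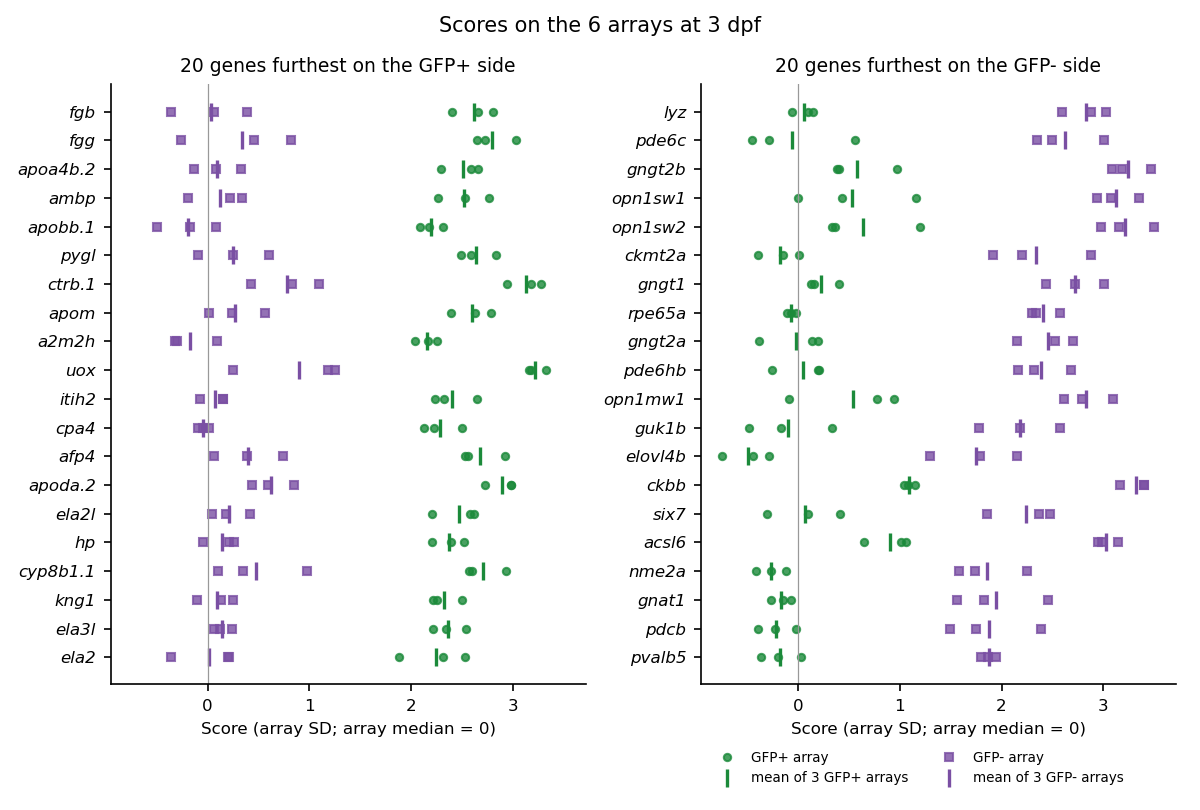
Scores (array SD) on the 6 arrays at 3 dpf for the 20 genes furthest on the GFP+ side (left) and the 20 furthest on the GFP- side (right), 1 probe set a gene, with circles for GFP+ arrays, squares for GFP- arrays and a bar for each mean of 3. The sorts do not overlap for any of the 40 genes, which was a condition for naming them.

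Genes of lipid transport were higher in 15 of 25 cases and lower in 1 (median 0.94), or in 2 with the replicate block. The apolipoprotein B gene apobb.1, the backbone of large lipoprotein particles, scored 2.31, 2.17 and 2.09 on the GFP+ arrays and -0.17, 0.08 and -0.5 on the GFP- arrays. A paralog, apoba, differed by 2.1 ± 0.32 (0.12 on another probe set, not called), and apoc2, which activates lipoprotein lipase, by 2.02 ± 0.22. Scores of apoa4b.1, an apolipoprotein of the gut, were 2.67, 2.79 and 2.57 on the GFP+ arrays and 0.67, 1.2 and 0.22 on the GFP- arrays. The GFP+ arrays lay within 0.3 array SD of each other, while the GFP- arrays ranged over about 1. Its difference was 1.98 ± 0.23 (adjusted p = 3.86e-06). The apolipoprotein E gene apoeb went the other way, with 0.83, 1.22 and 1.24 on the GFP+ arrays and 1.99, 2.15 and 2.14 on the GFP- arrays and a difference of -1.0 ± 0.18 (adjusted p = 0.000236). Every GFP- array was above every GFP+ array for apoeb.

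Enzymes of amino acid breakdown were higher in 29 of 37 cases and lower in 0 (median 0.79). The gene mat1a, which makes the methyl donor S-adenosylmethionine in liver, scored 1.9, 1.8 and 1.68 on the GFP+ arrays and -0.37, 0.08 and -0.53 on the GFP- arrays and differed by 2.07 ± 0.29 (adjusted p = 2.49e-05). Tryptophan dioxygenase tdo2a differed by 2.03 ± 0.3, the histidine pathway genes uroc1 and ftcd by 1.86 ± 0.24 and 1.76 ± 0.19, and the creatine synthesis genes gatm and gamt by 1.94 ± 0.33 and 1.76 ± 0.26. Creatine synthesis takes both enzymes in sequence, and their scores were 3.06, 2.25 and 2.91 against 0.83, 1.22 and 0.35 for gatm and 3.43, 2.95 and 3.23 against 1.61, 1.53 and 1.18 for gamt. Both genes were above the median in GFP- cells as well. The urea cycle genes asl and ass1 differed by -0.1 and -0.2 and were not called.

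Glucose and glycogen genes were higher in 11 of 18 cases and lower in 1 (median 1.17). Liver glycogen phosphorylase pygl, which frees glucose from glycogen, scored 2.83, 2.59 and 2.49 on the GFP+ arrays and 0.25, 0.6 and -0.09 on the GFP- arrays and differed by 2.38 ± 0.3 (adjusted p = 8.98e-06). Fructose bisphosphatase fbp1b and glucose 6-phosphatase g6pc1a.2, enzymes of glucose release, differed by 1.88 ± 0.19 and 1.61 ± 0.21. The liver pyruvate kinase gene pklr, on the opposing path of glycolysis, differed by 1.63 ± 0.23. Both paralogs of the glucose 6-phosphate transporter were called, in opposite directions: slc37a4a at 1.75 ± 0.21 and slc37a4b at -0.74 ± 0.13 (adjusted p = 0.000185). Scores of slc37a4b were -0.16, -0.25 and -0.08 on the GFP+ arrays and 0.43, 0.84 and 0.47 on the GFP- arrays, below the median in GFP+ cells and above it in GFP- cells. Of 3 purine breakdown genes, urate oxidase uox was higher, with 3.32, 3.17 and 3.16 on the GFP+ arrays and 1.25, 1.18 and 0.25 on the GFP- arrays and a difference of 2.32 ± 0.35 (adjusted p = 4.03e-05). GFP- array 3 was about 1 array SD below the other GFP- arrays for uox.

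Of 70 genes for cytochromes P450, conjugation and bile acid enzymes, 36 were higher and 1 lower (median 0.46). The bile acid enzyme gene cyp8b1.1 differed by 2.23 ± 0.29, cyp2p8 by 2.11 ± 0.22, cyp2p9 by 2.01 ± 0.24, the organic anion transporter gene slco1d1 by 1.99 ± 0.23, the glucuronosyltransferase gene ugt2a1 by 1.93 ± 0.26 and the sulfotransferase gene sult2st2 by 1.85 ± 0.23. The P450 genes cyp2p8 and cyp2p9 were below the median on all GFP- arrays, with GFP+ scores of 1.92, 1.44 and 1.34 for cyp2p8. Lower was sult4a1, a sulfotransferase of the mammalian brain, at -0.57 ± 0.16 (adjusted p = 0.013), not called without GFP+ array 1 or GFP- array 1 (adjusted p 0.066 to 0.0895). Peroxisomal and fatty acid oxidation genes were higher in 32 of 43 cases and lower in 0 (median 0.87). Among them the glycolate oxidase gene hao1 scored 2.54, 2.44 and 2.23 on the GFP+ arrays and 0.01, 0.69 and -0.04 on the GFP- arrays and differed by 2.19 ± 0.25 (adjusted p = 2.61e-06). The sterol carrier gene scp2a differed by 2.08 ± 0.28, ehhadh of peroxisomal oxidation by 1.48 ± 0.29, the peroxisomal transporter gene abcd3a by 1.29 ± 0.15 and the mitochondrial thiolase gene acaa2 by 1.27 ± 0.18.

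The list for enzymes of the exocrine pancreas, which is not limited to zymogens, had the highest list median, 2.02. Of its 20 genes 14 were higher and 0 lower. Chymotrypsinogen ctrb.1 scored 3.27, 2.94 and 3.17 on the GFP+ arrays and 1.09, 0.83 and 0.43 on the GFP- arrays. It was high on all GFP+ arrays and above the median on the GFP- arrays, and it differed by 2.34 ± 0.32 (adjusted p = 1.66e-05). The carboxypeptidase gene cpa4 scored 2.5, 2.12 and 2.22 on the GFP+ arrays and -0.04, 0.01 and -0.09 on the GFP- arrays, at the median in GFP- cells, and differed by 2.32 ± 0.37 (adjusted p = 7.43e-05). The elastase genes ela2l, ela3l and ela2 differed by 2.25 ± 0.42, 2.22 ± 0.34 and 2.22 ± 0.39. The trypsin gene prss1 was the highest in GFP- cells of the markers of this tissue, at 3.53, 3.22 and 3.54 against 1.78, 1.52 and 1.09. The amylase gene amy2a was not called, with 0.67, 0.62 and 0.42 on the GFP+ arrays and -0.14, -0.58 and -0.31 on the GFP- arrays and a difference of 0.91 ± 0.42 (adjusted p = 0.124). Its arrays did not overlap between the sorts, and it was called with the replicate block (adjusted p 0.00129) or in a fit of the 6 arrays of 3 dpf alone.

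In the list for the intestinal epithelium, 18 of 37 members were higher and 1 lower (median 0.79). Some of the list, such as the apolipoprotein genes above, is also expressed in liver. The membrane protein gene tm4sf4 scored 2.14, 1.78 and 1.89 on the GFP+ arrays and -0.33, 0.04 and -0.28 on the GFP- arrays and differed by 2.13 ± 0.32 (adjusted p = 3.9e-05). For cldn15la, a claudin of tight junctions in the gut, the scores were 2.74, 2.52 and 2.56 on the GFP+ arrays and 0.57, 1.07 and 0.57 on the GFP- arrays and the difference 1.87 ± 0.32 (adjusted p = 0.000153). The fatty acid binding protein genes fabp6 and fabp2 differed by 1.77 ± 0.37 and 1.73, and the microvillus gene vil1 by 1.35. The sorts did not overlap for any of these 5 genes, nor did they for 43.5% of all probe sets. Cadherin 17, cdh17, scored 1.94, 2.12 and 1.76 on the GFP+ arrays and 1.02, 1.45 and 1.39 on the GFP- arrays, a difference of 0.65 ± 0.28 that was not called (adjusted p = 0.0922) but was called with the replicate block (adjusted p 0.00735) or in a fit of the 6 arrays of 3 dpf alone. The lower gene was eps8l3b, a regulator of actin, at -1.02 ± 0.18 (adjusted p = 0.000226), with 0.9, 0.93 and 0.72 on the GFP+ arrays and 1.83, 1.87 and 1.9 on the GFP- arrays. Its difference was 0.08 on another probe set, not called.

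Transcription factors of the endoderm and of digestive organs were higher in 14 of 36 cases and lower in 1, with a median of 0.33. The small heterodimer partner gene nr0b2a, a repressor in bile acid control, scored 1.27, 1.48 and 1.33 on the GFP+ arrays and -0.5, 0.08 and -0.22 on the GFP- arrays and differed by 1.57 ± 0.16 (adjusted p = 1.23e-06). For gata6, which acts in early endoderm, the scores were 1.48, 1.49 and 1.21 on the GFP+ arrays and -0.28, 0.02 and -0.06 on the GFP- arrays, and the difference was 1.5 ± 0.17 (adjusted p = 2.3e-06). GFP- arrays were at the median for gata6, and GFP+ arrays were all above 1. The forkhead genes foxa1 and foxa3, which open chromatin in endoderm, differed by 1.19 ± 0.2 and 1.16 ± 0.14, cebpa by 1.29 ± 0.2 and nr5a2 by 1.23 ± 0.17. The factor nr2f1a, also used in the nervous system, was lower at -0.67 ± 0.13 (adjusted p = 0.000393). Its scores were 1.68, 2.2 and 1.65 on the GFP+ arrays and 2.55, 2.37 and 2.64 on the GFP- arrays, and GFP+ array 2 was closest to the GFP- range. The pancreas regulators pdx1 and ptf1a differed by 0.38 and 0.48 and were not called, though pdx1 was called in a fit of the 6 arrays of 3 dpf alone.

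Hormone genes and regulators of endocrine cells split, with 3 of 23 higher, 12 lower and a median of -0.61. Glucagon gcga scored 2.57, 3.03 and 3.02 on the GFP+ arrays and 1.33, 2.04 and 1.76 on the GFP- arrays and differed by 1.16 ± 0.24 (adjusted p = 0.000873). Both sorts were far above the median for gcga, and GFP- array 1 was the lowest. Insulin ins scored 1.79, 1.2 and 2.55 on the GFP+ arrays and 0.89, 1.18 and 0.86 on the GFP- arrays and was not called (0.87 ± 0.33, adjusted p = 0.06), though it was called without GFP+ array 2 (adjusted p 0.0159) or with the replicate block (adjusted p 0.0251). The somatostatin genes sst2 and sst1.1 were called higher, at 0.9 ± 0.32 and 0.6 ± 0.19. The call of sst2 (adjusted p = 0.0459) did not hold without GFP+ array 3 or GFP- array 1 or 3 (adjusted p 0.128 to 0.252) or after quantile normalization (adjusted p 0.063) or with the replicate block (adjusted p 0.0655) or in a fit of the 6 arrays of 3 dpf alone. That of sst1.1 (adjusted p = 0.0222) did not hold without GFP+ array 2 or GFP- array 1, 2 or 3 (adjusted p 0.0504 to 0.114), so that 1 gene of the list was higher without GFP- array 1 or 3. The lower genes included neurod1, with 0.32, 0.37 and 0.2 on the GFP+ arrays and 1.95, 2.23 and 2.11 on the GFP- arrays and a difference of -1.8 ± 0.19 (adjusted p = 1.26e-06). This factor acts in neurons and photoreceptors as well as in islet cells. So do pax6a (-1.65 ± 0.29) and isl1a (-1.26 ± 0.2, and -0.19 on another probe set, not called) in the nervous system, and the hormone processing genes cpe (-1.42 ± 0.17) and scg5 (-1.08 ± 0.24) belong to secretory neurons too. The gut hormone gene pyya was lower at -1.01 ± 0.24 (adjusted p = 0.0033), with -0.29, -0.4 and -0.54 on the GFP+ arrays and 1.1, -0.01 and 0.73 on the GFP- arrays. GFP- array 2 was well below the other GFP- arrays for pyya.

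**Figure D3:**
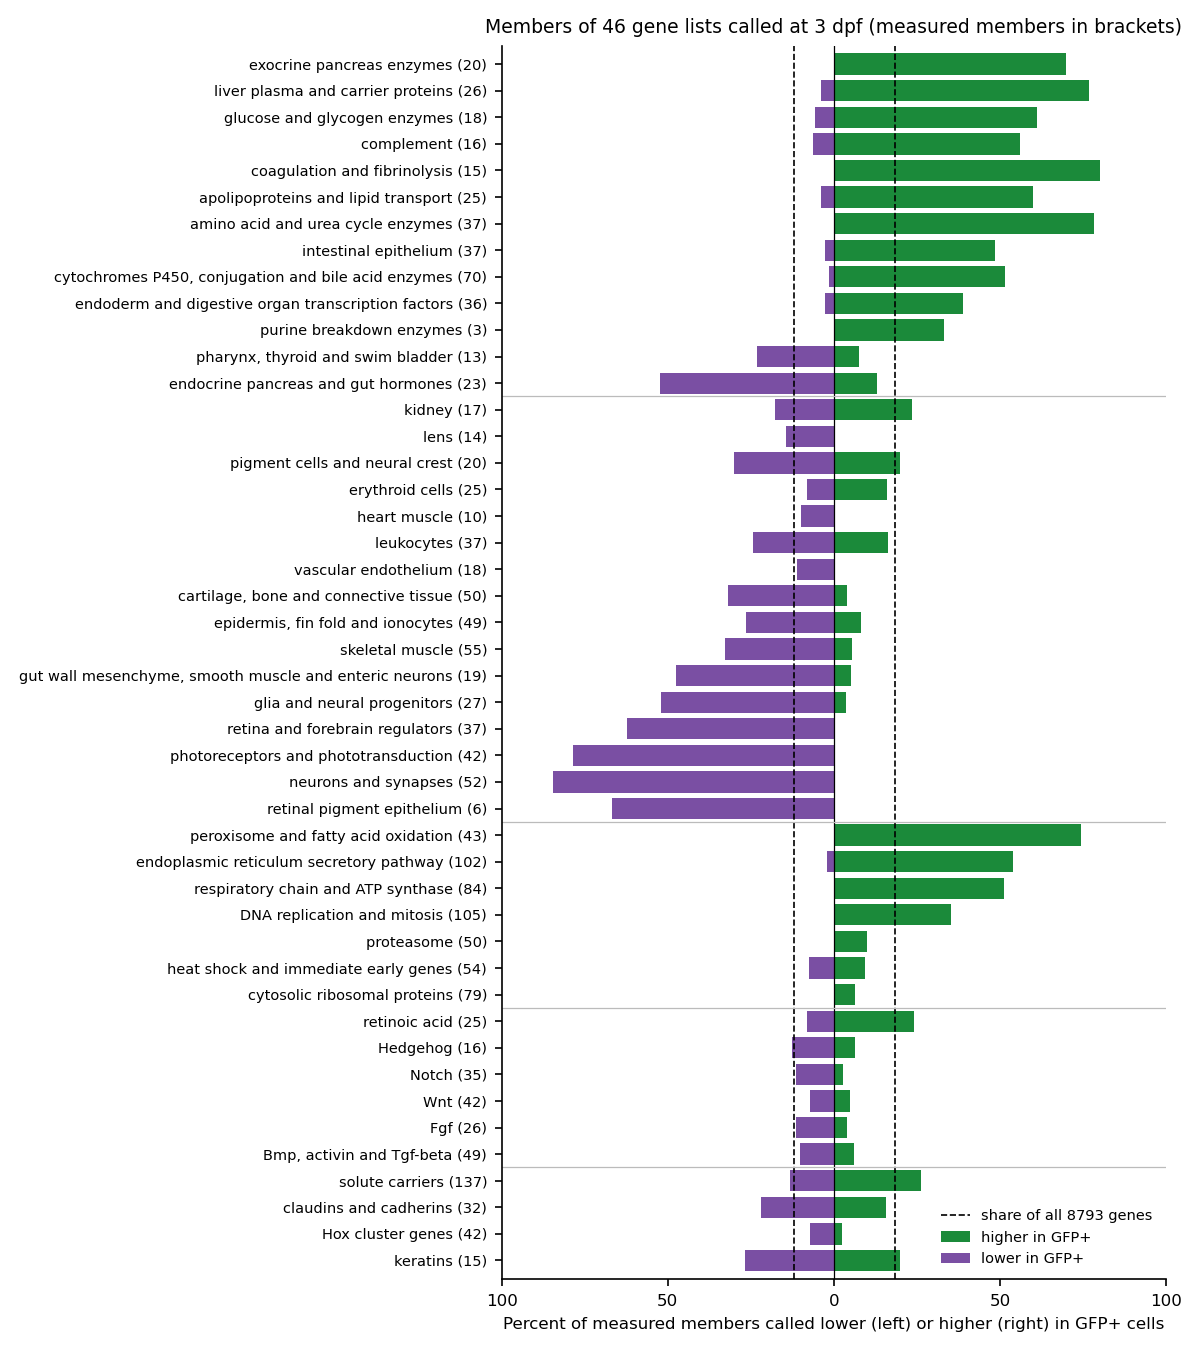
Percent of the measured members of each of 46 gene lists called higher (right, green) or lower (left, purple) in GFP+ cells at 3 dpf, with the number measured in brackets. Dashed lines mark the 18.5% of all 8793 genes called higher and the 11.9% called lower, and grey lines part lists of digestive organs, other tissues, processes, signalling pathways and gene families.

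Among photoreceptor genes 33 of 42 were lower and 0 higher (median -1.29). The cone phosphodiesterase gene pde6c, which breaks down cGMP when light arrives, scored 0.56, -0.45 and -0.28 on the GFP+ arrays and 2.35, 3.01 and 2.5 on the GFP- arrays, with GFP+ array 1 above the other GFP+ arrays. The difference was -2.68 ± 0.27 (adjusted p = 1.04e-06). The UV opsin gene opn1sw1 scored 1.16, 0.43 and 0.0 on the GFP+ arrays and 2.94, 3.35 and 3.07 on the GFP- arrays and differed by -2.59 ± 0.29 (adjusted p = 1.99e-06). For the blue opsin gene opn1sw2 the scores were 1.2, 0.37 and 0.34 on the GFP+ arrays and 2.98, 3.5 and 3.15 on the GFP- arrays, and the difference was -2.57 ± 0.3 (adjusted p = 3.14e-06). In both opsin genes GFP+ array 1 was about 1 array SD above the median. The transducin gamma genes gngt2b, gngt1 and gngt2a, which relay the signal from opsin, differed by -2.66 ± 0.28, -2.49 ± 0.24 and -2.47 ± 0.23. The red opsin marker opn1lw1 was below the median on all 6 arrays, at -0.73, -0.69 and -0.59 in GFP+ and -0.53, -0.23 and -0.65 in GFP- cells, and was not called. Leaving out GFP+ array 1 or any other single array kept all 6 of the largest photoreceptor differences called.

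Of 6 measured genes of the retinal pigment epithelium, which recycles the light sensor of the photoreceptors, 4 were lower (median -1.46). The isomerase gene rpe65a scored -0.11, -0.02 and -0.07 on the GFP+ arrays and 2.34, 2.57 and 2.3 on the GFP- arrays and differed by -2.47 ± 0.37 (adjusted p = 4.53e-05). The pigment enzyme gene dct differed by -2.05 ± 0.28, the retinal binding protein gene rlbp1a by -1.56 ± 0.2 and the melanosome gene pmelb by -1.35 ± 0.21. GFP+ arrays were near or below the median for these genes. Lens genes, mostly crystallins, numbered 14, of which 2 were lower (median 0.02). These were cryba4 (-1.09 ± 0.36, adjusted p = 0.0281) and crybb1 (-1.01 ± 0.37, adjusted p = 0.0493). The first was not called without GFP+ array 1 or 2 or GFP- array 1, 2 or 3 (adjusted p 0.0519 to 0.0907), and the second not without GFP+ array 1, 2 or 3 or GFP- array 1, 2 or 3 (adjusted p 0.057 to 0.156) or after quantile normalization (adjusted p 0.0604). The count of lower lens genes was 0 without GFP+ array 1 or 2 or GFP- array 1, 2 or 3 and 1 without GFP+ array 3. Most other lens genes were well below the median in both sorts. Mean scores in GFP+ and GFP- cells were -0.61 and -0.69 for cryaa and -0.78 and -0.79 for crygm6. The list median therefore does not show equal levels.

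Neuron genes were lower in 44 of 52 cases and higher in 0 (median -1.35). The acyl-CoA synthetase gene acsl6 of brain scored 1.01, 0.65 and 1.06 on the GFP+ arrays and 2.99, 3.14 and 2.95 on the GFP- arrays and differed by -2.13 ± 0.18 (adjusted p = 1.53e-07). The synaptic vesicle gene sypb scored 1.3, 1.25 and 0.63 on the GFP+ arrays and 2.97, 2.96 and 3.05 on the GFP- arrays, with GFP+ array 3 the lowest, and differed by -1.94 ± 0.25 (adjusted p = 8.73e-06). Calretinin calb2b differed by -1.92 ± 0.25, the growth cone gene stmn2a by -1.88 ± 0.21, the synaptic fusion gene snap25a by -1.88 ± 0.24 and slc32a1, which fills vesicles with inhibitory transmitter, by -1.87 ± 0.28. For snap25a the GFP+ arrays were at the median (0.13, 0.05 and -0.02), whereas sypb was about 1 array SD above it on GFP+ arrays 1 and 2. Regulators of retina and forebrain were lower in 23 of 37 cases and higher in 0 (median -0.67). Scores of the telencephalon gene foxg1b were 0.17, 1.06 and 0.22 on the GFP+ arrays and 2.51, 2.54 and 2.52 on the GFP- arrays, and the difference was -2.04 ± 0.19 (adjusted p = 5.44e-07). The GFP- arrays agreed closely, and GFP+ array 2 was above the other GFP+ arrays. The same array was the highest GFP+ array for six3a (0.55, 1.16 and 0.7 against 2.42, 2.36 and 2.46), which acts in the eye field, and for pax6a (0.53, 1.19 and 0.91 against 2.57, 2.44 and 2.58). The bipolar cell gene vsx1 differed by -1.71 ± 0.2, barhl2 by -1.75 ± 0.3 and otx2b by -1.56 ± 0.21.

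Glia and neural progenitor genes were lower in 14 of 27 cases and higher in 1 (median -0.42), or higher in 2 with the replicate block. With that block the lower genes s100b (-0.57 ± 0.2) and sox11a (-0.7 ± 0.22) were not called (adjusted p 0.0915 and 0.0575). The radial glia gene fabp7a scored 1.36, 1.7 and 1.44 on the GFP+ arrays and 3.41, 3.25 and 3.09 on the GFP- arrays and differed by -1.75 ± 0.2 (adjusted p = 2.45e-06), and the glutamate transporter gene slc1a2b differed by -1.52 ± 0.21. The neural factors neurod6b and neurod4 differed by -1.47 ± 0.26 and -1.32 ± 0.18. Expression of fabp7a was above the median on GFP+ arrays as well. A second glutamate transporter gene, slc1a3a, was called higher at 0.6 ± 0.18 (adjusted p = 0.0184), but not without GFP+ array 1 or GFP- array 1 (adjusted p 0.0653 to 0.0875). The count of higher glia genes was 0 without GFP- array 1 and 2 without GFP- array 3.

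The list for the gut wall held genes of mesenchyme and smooth muscle around the endoderm and also of enteric neurons, the nerve cells of the gut. Of its 19 genes 9 were lower and 1 higher (median -0.36), or 2 higher with the replicate block. Smooth muscle actin acta2 scored -0.21, 0.0 and -0.11 on the GFP+ arrays and 0.91, 1.42 and 0.96 on the GFP- arrays and differed by -1.2 ± 0.15 (adjusted p = 6.08e-06). The smooth muscle genes smtnb and tagln differed by -0.87 ± 0.2 and -0.83 ± 0.22, and fgf10a, a growth factor of gut mesenchyme, by -0.9 ± 0.22. On this list elavl3 (-1.81 ± 0.22) and meis3 (-1.42 ± 0.2) are also genes of neurons or hindbrain. The lower gene sox10 (-0.51 ± 0.15) is also on the list of glia, and its call held in 4 of the 6 fits that left out 1 array each. The higher gene was gata5, with 0.7, 0.2 and 0.34 on the GFP+ arrays and -0.45, -0.32 and -0.31 on the GFP- arrays and a difference of 0.77 ± 0.15 (adjusted p = 0.000734). It acts in endoderm as well as in heart mesoderm, and GFP- arrays were below the median. In the list for pharynx, thyroid and swim bladder, 3 of 13 genes were lower and 1 higher (median -0.04). Most members not called were below the median in both sorts. Mean scores in GFP+ and GFP- cells were -0.69 and -0.7 for nkx2.1 and -0.61 and -0.6 for nkx2.3. This list median therefore does not show equal levels. The lower genes were fgf10a and the genes sox3 (-1.07 ± 0.25) and sox2 (-0.74 ± 0.2), which neural progenitors also use. The difference of sox2 was -0.17 and -0.37 on the other probe sets, not called, and its call did not hold without GFP+ array 1 (adjusted p 0.0589). The higher gene was the hedgehog ligand gene ihha at 0.35 ± 0.1 (adjusted p = 0.0108), not called without GFP+ array 2 (adjusted p 0.0888) or in a fit of the 6 arrays of 3 dpf alone. Scores of ihha were low in both sorts, at -0.39, 0.0 and -0.44 on the GFP+ arrays and -0.62, -0.66 and -0.6 on the GFP- arrays.

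Skeletal muscle genes were lower in 18 of 55 cases and higher in 3 (median -0.28). The count of lower genes was 10 without GFP+ array 1 and 11 without GFP+ array 2 or GFP- array 3. The myosin light chain gene mylpfa scored 0.13, -0.26 and 0.73 on the GFP+ arrays and 1.51, 1.22 and 2.12 on the GFP- arrays, with array 3 the highest in each sort as in the muscle marker sum. It differed by -1.42 ± 0.27 (adjusted p = 0.000443). The glycogen phosphorylase gene of muscle, pygmb, differed by -1.38 ± 0.14, in the direction opposite to pygl, and the muscle regulator gene mef2ca by -1.23 ± 0.22. Higher in GFP+ cells were the glycolysis genes pgam2, with 0.76, 0.51 and 0.54 on the GFP+ arrays and -0.58, -0.49 and -0.44 on the GFP- arrays and a difference of 1.11 ± 0.27 (adjusted p = 0.00432), and eno3, with 2.98, 2.44 and 3.0 on the GFP+ arrays and 1.83, 1.89 and 1.64 on the GFP- arrays and a difference of 1.02 ± 0.18 (adjusted p = 0.000271). The contractile gene mybpc2b was called at 0.56 ± 0.19 (adjusted p = 0.034) but not without GFP+ array 1 or GFP- array 1, 2 or 3 (adjusted p 0.0625 to 0.201) or after quantile normalization (adjusted p 0.0571) or with the replicate block (adjusted p 0.0688). Of 10 heart genes only hand2 was lower (-0.48 ± 0.17, adjusted p = 0.0388), and it was not called without GFP+ array 1 or 2 or GFP- array 2 or 3 (adjusted p 0.0875 to 0.149) or after quantile normalization (adjusted p 0.0658). Most other heart genes were below the median in both sorts, such as myh7 at a mean of -0.54 in each, and their missing calls do not show equal levels.

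Epidermis, fin fold and ionocyte genes were lower in 13 of 49 cases and higher in 4 (median -0.2), with 8 higher under the replicate block. The fin fold genes and3, and2 and and1, which code for actinodin fibres, differed by -1.97 ± 0.21, -1.8 ± 0.22 and -1.58 ± 0.19. Scores of and3 were 0.17, 0.1 and 0.58 on the GFP+ arrays and 2.21, 2.39 and 2.16 on the GFP- arrays, and the sorts were well apart. The ionocyte pump gene atp1b1b differed by -1.38 ± 0.2. The count of lower genes was 7 without GFP+ array 1 or GFP- array 3 and 8 without GFP+ array 2, and of higher genes 1 without GFP+ array 3 or GFP- array 1 or 2 and 2 without GFP+ array 1 or 2. The higher genes were krt97 (0.86 ± 0.31), krtcap2 (0.79 ± 0.17), dsc2l (0.73 ± 0.23, and 0.06 on another probe set, not called) and the epithelial cadherin gene cdh1 (0.57 ± 0.18). Despite its name krtcap2 codes for a subunit of the enzyme that adds sugars in the endoplasmic reticulum. The calls of the other 3 did not hold for krt97 without GFP+ array 1, 2 or 3 or GFP- array 1, 2 or 3 (adjusted p 0.0632 to 0.157), for dsc2l without GFP+ array 1 or 3 or GFP- array 1 or 2 (adjusted p 0.0565 to 0.13) and for cdh1 without GFP+ array 2 or 3 or GFP- array 1 or 2 (adjusted p 0.0577 to 0.139). Among 15 keratins 3 were higher and 4 lower. Keratin 8, krt8, a keratin of simple epithelia such as the gut, scored 2.46, 2.87 and 3.11 on the GFP+ arrays and 1.7, 1.87 and 1.89 on the GFP- arrays and differed by 0.99 ± 0.25 (adjusted p = 0.00464). The other higher keratins were krt97 and krt18a.1 (0.63 ± 0.21), the second not called without GFP+ array 1 or 3 or GFP- array 2 or 3 (adjusted p 0.0662 to 0.185). Lower were krt5 (-0.77), krt15 (-1.02), krt1-19e (-1.12, and -0.82 on another probe set, not called) and krt99 (-0.67). Of these, krt5 was not called without GFP+ array 1 or 2 or GFP- array 2 or 3 (adjusted p 0.064 to 0.184) or in a fit of the 6 arrays of 3 dpf alone, and krt15 not without GFP+ array 1 or 2 or GFP- array 2 or 3 (adjusted p 0.0895 to 0.197). The gene krt1-19e was not called without GFP+ array 1 or 2 or GFP- array 2 or 3 (adjusted p 0.0577 to 0.11) or in a fit of the 6 arrays of 3 dpf alone, and krt99 not without GFP+ array 1 or 3 or GFP- array 2 or 3 (adjusted p 0.0827 to 0.164) or with the replicate block (adjusted p 0.0511). The number of lower keratins was 0 without GFP+ array 1 or GFP- array 2 or 3 and 1 without GFP+ array 2, and of higher keratins 1 without GFP+ array 1 or 3 or GFP- array 2 or 3. GFP+ array 3 was the highest of its sort for krt5 (2.55) and krt1-19e (2.71), as in the epidermis marker sum, and its part in these values was not tested.

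The 50 genes of connective tissue, cartilage and bone had 16 lower and 2 higher members (median -0.19). The collagen gene col1a2 scored 0.47, 0.32 and 1.17 on the GFP+ arrays and 1.99, 2.17 and 2.23 on the GFP- arrays and differed by -1.48 ± 0.18 (adjusted p = 6.5e-06), and a chain of the same collagen, col1a1a, differed by -1.09 ± 0.16. Periostin postnb differed by -1.23 ± 0.19, matn4 by -1.15 ± 0.23, tgfbi by -1.13 ± 0.26 and the matrix protease gene mmp2 by -1.1 ± 0.18 (-0.16 on another probe set, not called). GFP+ array 3 was the highest of its sort for col1a2, postnb, matn4 and tgfbi. The higher genes were col12a1b, with 2.19, 2.01 and 2.2 on the GFP+ arrays and 1.01, 1.12 and 1.43 on the GFP- arrays and a difference of 0.95 ± 0.18, and p4ha1b (0.67 ± 0.17), an enzyme that hydroxylates collagen. Of 18 vascular endothelium genes, crip2 (-0.8 ± 0.13) and tll1 (-0.55 ± 0.13) were lower and 0 were higher (median -0.14). Most of the others were below the median in both sorts. Mean scores in GFP+ and GFP- cells were -0.6 and -0.64 for tek and -0.59 and -0.63 for tie1. For such genes a missing call does not show equal levels.

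Among leukocyte genes, 9 of 37 were lower and 6 higher (median -0.07). Lysozyme lyz, an enzyme of zebrafish neutrophils and macrophages, scored 0.15, 0.1 and -0.06 on the GFP+ arrays and 2.88, 3.03 and 2.59 on the GFP- arrays and had the most negative difference of any named gene, -2.77 ± 0.43 (adjusted p = 6.13e-05). Myeloperoxidase mpx, a neutrophil enzyme, scored 2.09, 1.76 and 2.14 on the GFP+ arrays and 0.29, 0.61 and 0.88 on the GFP- arrays and differed by 1.4 ± 0.2 in the opposite direction (adjusted p = 3.27e-05). The sorts did not overlap for mpx on this probe set, nor for lyz, where that was a condition for naming it. The difference of mpx was -0.39, -0.27 and -0.04 on the other probe sets, not called, so that its direction rests on 1 of 4 probe sets. The proteases mmp13a (-1.33 ± 0.25) and mmp9 (-1.2 ± 0.26) and the actin regulator gene coro1a (-0.97 ± 0.21) were lower. The leukocyte regulator spi1b was not called, with 0.45, 0.8 and 0.69 against 0.38, 0.69 and 0.6. The remaining higher members included cpa5 and cebpa, which the pancreas or the liver also uses.

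Of 25 erythroid genes, 4 were higher and 2 lower (median -0.03). Many of the others were well below the median in both sorts. Mean scores in GFP+ and GFP- cells were -0.65 and -0.68 for gata1a. For such genes a missing call does not show equal levels. The haem synthesis gene cpox, used in liver as well as in red cells, scored 1.9, 1.53 and 1.76 on the GFP+ arrays and 0.39, 0.4 and 0.5 on the GFP- arrays and differed by 1.3 ± 0.15 (adjusted p = 4.06e-06). Other higher genes were the iron transporter gene slc11a2 (0.73 ± 0.15), the antioxidant gene prdx2 (0.47 ± 0.11) and the haem synthesis gene urod (0.45 ± 0.15), the last not called without GFP+ array 1 or 2 or GFP- array 1, 2 or 3 (adjusted p 0.0539 to 0.194) or with the replicate block (adjusted p 0.0747) or in a fit of the 6 arrays of 3 dpf alone. The membrane skeleton gene dmtn differed by -1.48 ± 0.17 and the carbonic anhydrase gene cahz of red cells by -0.79 ± 0.18. The embryonic globin gene hbae3 was not called (0.42, 0.65 and 1.88 against 1.2, 2.4 and 3.43, adjusted p = 0.104), and array 3 was its highest in both sorts. It was called lower without GFP+ array 3 or GFP- array 1 (adjusted p 0.0312 to 0.049) or with the replicate block (adjusted p 0.019). Pigment and neural crest genes split, with 4 of 20 higher and 6 lower (median 0.0). Those higher were atic (1.07 ± 0.13), paics (1.0 ± 0.14), gart (0.79 ± 0.24) and phyhd1 (0.96 ± 0.24), of which atic, paics and gart make purines in every tissue. The call of gart did not hold without GFP+ array 1 or 2 or GFP- array 2 (adjusted p 0.0548 to 0.0635). The melanin genes dct and pmelb were lower, as given above, and tfap2a of neural crest and skin differed by -1.1 ± 0.25. The genes tyr and mitfb of the pigment epithelium list differed by 0.06 and 0.0 and were not called. Both were below the median on all 6 arrays. Of 17 kidney genes 4 were higher and 3 lower (median 0.04), the number of higher genes being 1 without GFP+ array 1 and 2 without GFP+ array 3 or GFP- array 1 or 3. The regulator pax2a, also of midbrain and eye, differed by -1.12 ± 0.11 (-0.01 on another probe set, not called) and the phosphate transporter gene slc20a1a by -1.22 ± 0.3. The ion channel gene trpm7 was higher at 0.59 ± 0.1.

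Genes for copying DNA and dividing were higher in 37 of 105 cases and lower in 0 (median 0.28). The differences were small, none above 0.71 array SD, and the count rested on few arrays, with 19 without GFP- array 3 and 23 without GFP+ array 1 or GFP- array 2. After quantile normalization 28 were higher. The origin recognition gene orc6 scored 1.05, 1.05 and 0.93 on the GFP+ arrays and 0.34, 0.33 and 0.23 on the GFP- arrays and differed by 0.71 ± 0.14 (adjusted p = 0.000598). The replication genes fen1, hells and gins3 differed by 0.69 ± 0.16, 0.68 ± 0.11 and 0.65 ± 0.13. Topoisomerase top2a, which untangles chromosomes in dividing cells, scored 0.82, 0.99 and 0.84 on the GFP+ arrays and 0.21, 0.26 and 0.21 on the GFP- arrays and differed by 0.66 ± 0.1 (adjusted p = 7.36e-05). The sorts did not overlap for these 5 genes, nor did they for 43.5% of all probe sets. Probe sets of a gene did not always move together: the difference of top2a was 0.07, 0.11, 0.05 and 0.05 on the other probe sets, not called, and that of hells 0.06 on another probe set, not called. At 2 dpf 7 of the 105 were higher and 7 lower, beside 12.3% of all genes higher and 7.71% lower at that age. At 4 dpf 11 were higher and 4 lower, beside 23.2% and 12.1% of all genes.

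Respiratory chain and ATP synthase genes, which make ATP in mitochondria, were higher in 43 of 84 cases and lower in 0 (median 0.32). The count was 27 without GFP+ array 1. Cytochrome oxidase subunit cox6b1 scored 3.08, 2.59 and 3.01 on the GFP+ arrays and 2.02, 1.77 and 1.88 on the GFP- arrays and differed by 1.0 ± 0.15 (adjusted p = 5.63e-05), and cox4i1l differed by 1.07 ± 0.28. The succinate dehydrogenase gene sdhdb differed by 0.74 ± 0.14 and the assembly factor gene ndufaf8 by 0.73 ± 0.14. At 2 dpf 37 were higher, and at 4 dpf 75, beside 12.3% and 23.2% of all genes. Genes of the secretory route through the endoplasmic reticulum (ER) were higher in 55 of 102 cases and lower in 2 (median 0.36). The higher count was 37 to 53 when 1 array was left out. It was 9 at 2 dpf and 76 at 4 dpf, beside the same shares of all genes. The pancreatic disulfide isomerase gene pdia2 led with 2.5, 2.03 and 2.31 on the GFP+ arrays and 0.18, 0.2 and 0.01 on the GFP- arrays and 2.15 ± 0.34. The ER chaperone gene dnajc3a scored 1.56, 1.37 and 1.23 on the GFP+ arrays and 0.05, 0.13 and 0.05 on the GFP- arrays and differed by 1.31 ± 0.27 (adjusted p = 0.000921). Cargo receptor gene mcfd2 differed by 1.08 ± 0.22, tmed3 by 1.03 ± 0.16 and the translocon gene tram1 by 1.0 ± 0.2. GFP+ arrays were above GFP- arrays for each of these, as they were for 25.7% of all probe sets. The lower genes were tusc3 (-1.25 ± 0.14), a subunit that helps add sugars, and tmed4 (-0.78 ± 0.14), a cargo receptor of the same family as tmed3.

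**Figure D4:**
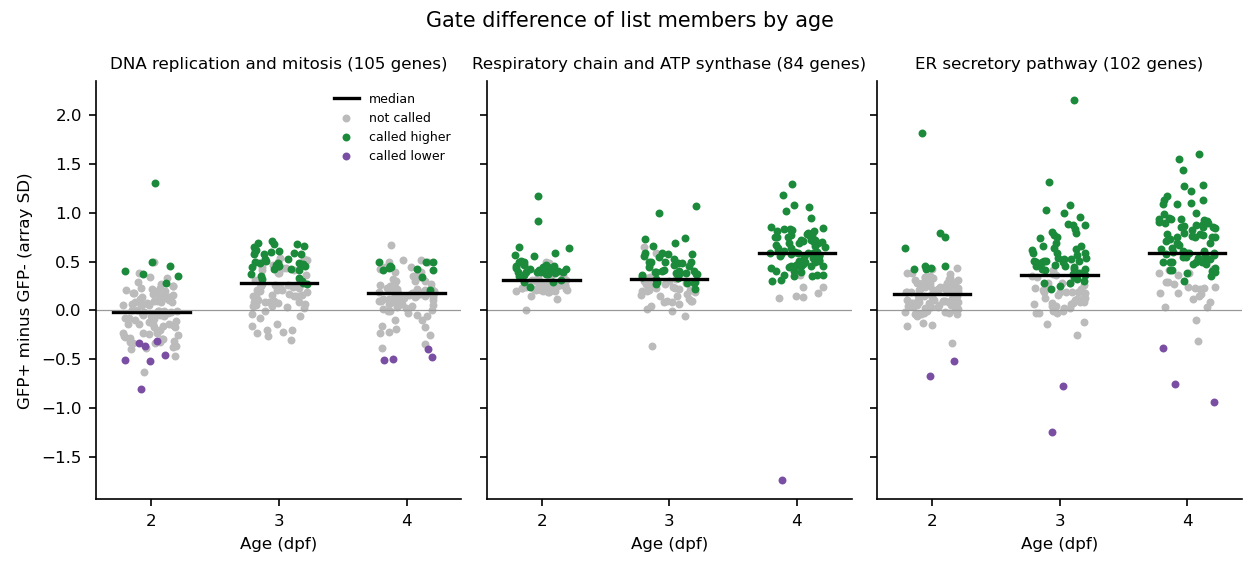
GFP+ minus GFP- difference (array SD) at 2, 3 and 4 dpf for each member of 3 lists, with green for members called higher, purple for lower, grey for not called and a bar for the median. The medians for DNA replication and mitosis were -0.02, 0.28 and 0.18, and those for the ER list 0.17, 0.36 and 0.59.

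The ribosome and proteasome lists, drawn by name pattern, stayed near the background or under it. Of 79 genes with ribosomal protein names 5 were higher and 0 lower (median -0.01). Of those 5, rps27l (1.3 ± 0.13) and rps27.2 (0.3 ± 0.11, not called without GFP+ array 1, 2 or 3 or GFP- array 3 (adjusted p 0.0525 to 0.244) or with the replicate block (adjusted p 0.0559) or in a fit of the 6 arrays of 3 dpf alone) code for ribosomal proteins, while rpl7l1, rps6kb1b and rps19bp1 are a ribosome assembly factor, a kinase and a binding protein. The call of rps19bp1 (0.39 ± 0.12) did not hold without GFP+ array 1 or 3 or GFP- array 1 (adjusted p 0.0532 to 0.0953). The count of 5 was 3 without GFP+ array 1 or 3. For rps27l the scores were 1.76, 1.56 and 1.92 on the GFP+ arrays and 0.33, 0.59 and 0.42 on the GFP- arrays. Of 50 proteasome names 5 were higher and 0 lower (median 0.12), led by the activator gene psme1, with 1.12, 1.15 and 0.87 on the GFP+ arrays and -0.13, -0.29 and -0.07 on the GFP- arrays and a difference of 1.21 ± 0.31 (adjusted p = 0.00604). Another activator gene, psme3, differed by 0.41 ± 0.09, and psmc3ip, whose product is no part of the proteasome, by 0.67 ± 0.23. The call of psmc3ip did not hold without GFP+ array 1 or 2 or GFP- array 1, 2 or 3 (adjusted p 0.0672 to 0.138). The count of 5 was 2 without GFP+ array 1 or GFP- array 1 and 3 without GFP+ array 2 or GFP- array 3. Heat shock and immediate early genes, which respond to stress such as dissociation, were higher in 5 of 54 cases and lower in 4 (median 0.05). The mitochondrial chaperone genes hspd1 and hspe1 differed by 1.18 ± 0.16 and 0.72 ± 0.12, and ier5l and dnaja2b by -1.03 ± 0.17 and -0.88 ± 0.13. The early response genes egr1, jun and atf3 differed by 0.35, 0.34 and 0.32, and none was called.

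Signalling pathways had few called members, read here against the 18.5% and 11.9% of all genes. Some members were well below the median in both sorts. Mean scores in GFP+ and GFP- cells were -0.67 and -0.77 for gli1, -0.59 and -0.64 for notch1a and -0.71 and -0.76 for fgf4. For such genes a missing call does not show equal levels. Of 16 Hedgehog genes 1 was higher, the ligand gene ihha given above, and 2 lower. The higher count was 0 without GFP+ array 2 and 2 without GFP+ array 1 or GFP- array 3. The receptor gene boc differed by -1.13 ± 0.18 (adjusted p = 6.18e-05; -0.21 on another probe set, not called), with -0.21, 0.04 and 0.22 on the GFP+ arrays and 1.39, 0.95 and 1.1 on the GFP- arrays, and the effector gene gli2a by -0.55 ± 0.16. The call of gli2a did not hold without GFP+ array 1 or GFP- array 1 (adjusted p 0.0646 to 0.0756). Of 35 Notch genes 1 was higher and 4 lower. The ubiquitin ligase gene dtx4a differed by -1.09 ± 0.12. The genes hes6 and her3 differed by -0.78 ± 0.12 and -0.77 ± 0.13 (for her3, -0.01 on another probe set, not called). The ligand gene dla differed by -0.54 ± 0.14 and was not called without GFP- array 1 (adjusted p 0.0647). The ligand gene dld was called higher at 0.57 ± 0.14 (adjusted p = 0.00387) although the arrays overlapped, with 1.88, 1.24 and 1.58 on the GFP+ arrays and 0.81, 1.28 and 0.92 on the GFP- arrays. It was not called in a fit of the 6 arrays of 3 dpf alone. Of 42 Wnt genes 2 were higher and 3 lower. The secreted Wnt inhibitor gene sfrp5 scored 1.85, 1.84 and 2.1 on the GFP+ arrays and 0.78, 0.26 and 0.73 on the GFP- arrays and differed by 1.34 ± 0.17 (adjusted p = 8.42e-06). Lower were tle2a (-0.86 ± 0.16), a corepressor, the Wnt target sp5a (-0.71 ± 0.2) and the ligand gene wnt11 (-0.64 ± 0.22). The call of wnt11 did not hold without GFP+ array 1 or 2 or GFP- array 1, 2 or 3 (adjusted p 0.0689 to 0.152). The second higher gene, the receptor gene fzd8a (0.47 ± 0.14), was not called without GFP+ array 2 or GFP- array 1 (adjusted p 0.0605 to 0.0894).

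Of 49 genes of the Bmp, activin and Tgf-beta pathways 3 were higher and 5 lower. The inhibitor of DNA binding genes id4 and id1, which respond to Bmp, differed by -1.39 ± 0.2 and -0.72 ± 0.13. Follistatin fsta, an activin antagonist, differed by -0.75 ± 0.15 (0.06 on another probe set, not called) and the decoy receptor gene bambia by 0.5 ± 0.13. The number of higher genes was 1 without GFP+ array 3 or GFP- array 1 or 3, and of lower genes 3 without GFP+ array 2. Of 26 Fgf genes 1 was higher and 3 lower. The receptor-like gene fgfrl1a, which lacks a kinase domain, scored 1.55, 1.58 and 1.07 on the GFP+ arrays and 0.38, 0.33 and 0.15 on the GFP- arrays and differed by 1.11 ± 0.31 (adjusted p = 0.0114). Lower were fgf13a (-1.29 ± 0.11), which acts inside neurons, fgf10a as given above, and the pathway inhibitor gene spred1 (-0.46 ± 0.15). The call of spred1 did not hold without GFP+ array 1 or GFP- array 1 (adjusted p 0.106 to 0.116) or with the replicate block (adjusted p 0.051). Of 25 retinoic acid genes 6 were higher and 2 lower (median 0.04), or 1 lower with the replicate block. The 6 of 25 retinoic acid genes called higher were little above the 18.5% of all genes, and no test of this list was run. The aldehyde dehydrogenase gene aldh8a1 scored 2.45, 1.68 and 2.29 on the GFP+ arrays and 0.33, 0.48 and 0.16 on the GFP- arrays and differed by 1.82 ± 0.28 (adjusted p = 5.36e-05). The synthesis gene aldh1a2 differed by 0.9 ± 0.24 and the binding protein gene crabp1a by -0.74 ± 0.15. The call of aldh1a2 did not hold without GFP+ array 1 (adjusted p 0.0539). The second lower gene, crabp2a (-0.76 ± 0.28), was not called without GFP+ array 1, 2 or 3 or GFP- array 1, 2 or 3 (adjusted p 0.0503 to 0.143) or after quantile normalization (adjusted p 0.066) or with the replicate block (adjusted p 0.0776). Lower retinoic acid genes numbered 1 without GFP+ array 1, 2 or 3 or GFP- array 1 or 3.

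Among Hox genes, which mark position along the body, 1 of 42 was higher and 3 lower, the number of lower genes being 1 without GFP+ array 1 or GFP- array 3 and 7 without GFP- array 2. The one whose call held in every such fit, hoxc8a, scored -0.01, 0.39 and 0.14 on the GFP+ arrays and 0.89, 0.81 and 1.17 on the GFP- arrays and differed by -0.78 ± 0.18 (adjusted p = 0.00206; -0.02 and -0.42 on the other probe sets, not called). The others were hoxb9a (-0.8 ± 0.22), not called without GFP+ array 1 or GFP- array 3 (adjusted p 0.0519 to 0.088) or in a fit of the 6 arrays of 3 dpf alone, and hoxb3a (-0.63 ± 0.23), not called without GFP+ array 1, 2 or 3 or GFP- array 1 or 3 (adjusted p 0.0864 to 0.201) or after quantile normalization (adjusted p 0.053). The higher gene hoxb10a (0.65 ± 0.19) was not called without GFP+ array 2 (adjusted p 0.111) or in a fit of the 6 arrays of 3 dpf alone. Of 32 claudins and cadherins 5 were higher and 7 lower, or 9 and 8 with the replicate block. The claudin gene cldn3d scored 2.63, 2.77 and 2.7 on the GFP+ arrays and 0.93, 1.24 and 1.28 on the GFP- arrays and differed by 1.55 ± 0.26 (adjusted p = 0.000118), beside cldn15la. Lower were the mesenchymal and neural cadherin genes cdh11 (-1.16 ± 0.2; -0.51 on another probe set, not called), cdh2 (-0.81 ± 0.13; -0.23 on another probe set, not called) and cdh4 (-0.73 ± 0.13) and the skin claudin genes cldni (-1.05 ± 0.25) and cldn1 (-0.88 ± 0.21). The number of higher genes of this family was 2 without GFP+ array 3 and 3 without GFP+ array 2 or GFP- array 1, 2 or 3. Of 137 solute carriers 36 were higher and 18 lower (median 0.11). The glucose transporter of liver and pancreas, slc2a2, scored 1.86, 2.01 and 1.54 on the GFP+ arrays and 0.18, 0.52 and 0.17 on the GFP- arrays and differed by 1.51 ± 0.18 (adjusted p = 3.61e-06), whereas slc2a3a, the one of neurons in mammals, differed by -1.31 ± 0.2. The monocarboxylate transporter gene slc16a3b scored 0.5, -0.2 and 1.0 on the GFP+ arrays and 2.06, 2.66 and 2.35 on the GFP- arrays and differed by -1.92 ± 0.23 (adjusted p = 5.1e-06). Its GFP+ arrays ranged over more than 1 array SD.

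Next, the difference at 3 dpf was set against that at 2 dpf, which uses other arrays. For 110 probe sets the difference changed (0.71%), up in 26 (0.168%) and down in 84 (0.542%). With the replicate block 49 moved up and 78 down. The count of 110 was 57 or 63 without GFP+ array 1 or 2 of 3 dpf, 64 without GFP- array 2 of 3 dpf, and 60 or 52 without GFP- array 2 or 3 of 2 dpf. Of the 42 photoreceptor genes 11 moved down and 0 up. At 2 dpf pde6c scored -0.34, -0.51 and -0.55 in GFP+ and -0.51, -0.81 and -0.75 in GFP- cells, so both sorts were below the median. At 3 dpf every GFP- array was above 2, and the difference moved by -2.9 ± 0.38 (SE, n = 3 arrays in each of 4 groups; adjusted p = 0.00114). The green opsin gene opn1mw1 scored -0.19, -0.51 and -0.59 in GFP+ and -0.46, -0.58 and -0.56 in GFP- cells at 2 dpf and 0.94, 0.78 and -0.09 in GFP+ and 2.61, 3.09 and 2.79 in GFP- cells at 3 dpf, a move of -2.39 ± 0.36 (adjusted p = 0.00321). The opsin genes opn1sw2 and opn1sw1 moved by -2.46 ± 0.42 and -2.44 ± 0.4, the phosphodiesterase subunit gene pde6hb by -2.16 ± 0.37 and gngt2b by -2.15 ± 0.39. These 6 photoreceptor genes were called in all 18 other fits tried, leaving out any array of 2 or 3 dpf included.

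Upward moves were less stable. The zymogen gene cpa5 scored 0.21, -0.11 and -0.14 in GFP+ and 0.23, 0.25 and 0.99 in GFP- cells at 2 dpf, and its difference moved by 2.69 ± 0.59 to 2.19 (adjusted p = 0.0355). It was not called without GFP+ array 1, 2 or 3 of 2 dpf or GFP- array 2 or 3 of 2 dpf or GFP+ array 1, 2 or 3 of 3 dpf or GFP- array 1, 2 or 3 of 3 dpf (adjusted p 0.0537 to 0.122). The C-reactive protein gene crp3, of a family of plasma proteins, scored -0.44, -0.48 and -0.49 in GFP+ and 0.26, 0.08 and -0.62 in GFP- cells at 2 dpf and 2.48, 2.11 and 2.1 in GFP+ and 0.73, 0.75 and 0.09 in GFP- cells at 3 dpf. It moved by 2.08 ± 0.41 (adjusted p = 0.0171) and was not called without GFP- array 2 of 2 dpf or GFP+ array 1 of 3 dpf (adjusted p 0.0585 to 0.0621). The steroid reductase gene srd5a2a moved by 1.45 ± 0.29 and was not called without GFP- array 3 of 2 dpf or GFP+ array 1 of 3 dpf (adjusted p 0.0609 to 0.0652). The dehydrogenase gene dhrs9 moved by 1.53 ± 0.31 and was not called without GFP+ array 1 or 2 of 2 dpf or GFP- array 3 of 2 dpf or GFP+ array 1 of 3 dpf or GFP- array 3 of 3 dpf (adjusted p 0.0514 to 0.0792). For the creatine kinase gene ckba the move was 1.33 ± 0.27, not called without GFP+ array 1 of 2 dpf or GFP- array 3 of 2 dpf or GFP+ array 1 of 3 dpf or GFP- array 1 of 3 dpf (adjusted p 0.0504 to 0.0718). Carboxypeptidase N, cpn1, was lower in GFP+ cells at 2 dpf (-0.78) and higher at 3 dpf (0.85), with -0.15, 0.13 and 0.35 in GFP+ and 0.75, 0.62 and 1.28 in GFP- cells at 2 dpf. Its move of 1.62 ± 0.37 (adjusted p = 0.0421) was not called without GFP+ array 1 or 2 of 2 dpf or GFP- array 2 or 3 of 2 dpf or GFP+ array 1, 2 or 3 of 3 dpf or GFP- array 1, 2 or 3 of 3 dpf (adjusted p 0.0585 to 0.143) or after quantile normalization (adjusted p 0.0505). The call at 3 dpf itself did not hold without GFP+ array 1 or GFP- array 2 (adjusted p 0.0546 to 0.0876). Among the 105 DNA replication and mitosis genes, top2a, cdca8, ttk and birc5a moved up, top2a by 0.96 ± 0.15 (adjusted p = 0.00321) on the probe set named above. At 2 dpf top2a and birc5a had been lower in GFP+ cells. The calls of birc5a and ttk at 3 dpf did not hold, for birc5a without GFP+ array 1, 2 or 3 or GFP- array 2 or 3 (adjusted p 0.0637 to 0.125) or after quantile normalization (adjusted p 0.0502) and for ttk without GFP+ array 1 (adjusted p 0.0521). The GAPDH 3' minus 5' score at 2 dpf was 0.755, 0.399 and 0.527 in GFP+ and 0.236, 0.269 and 0.266 in GFP- cells, apart at that age and overlapping at 3 dpf, and its part in these moves was not tested.

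**Figure D5:**
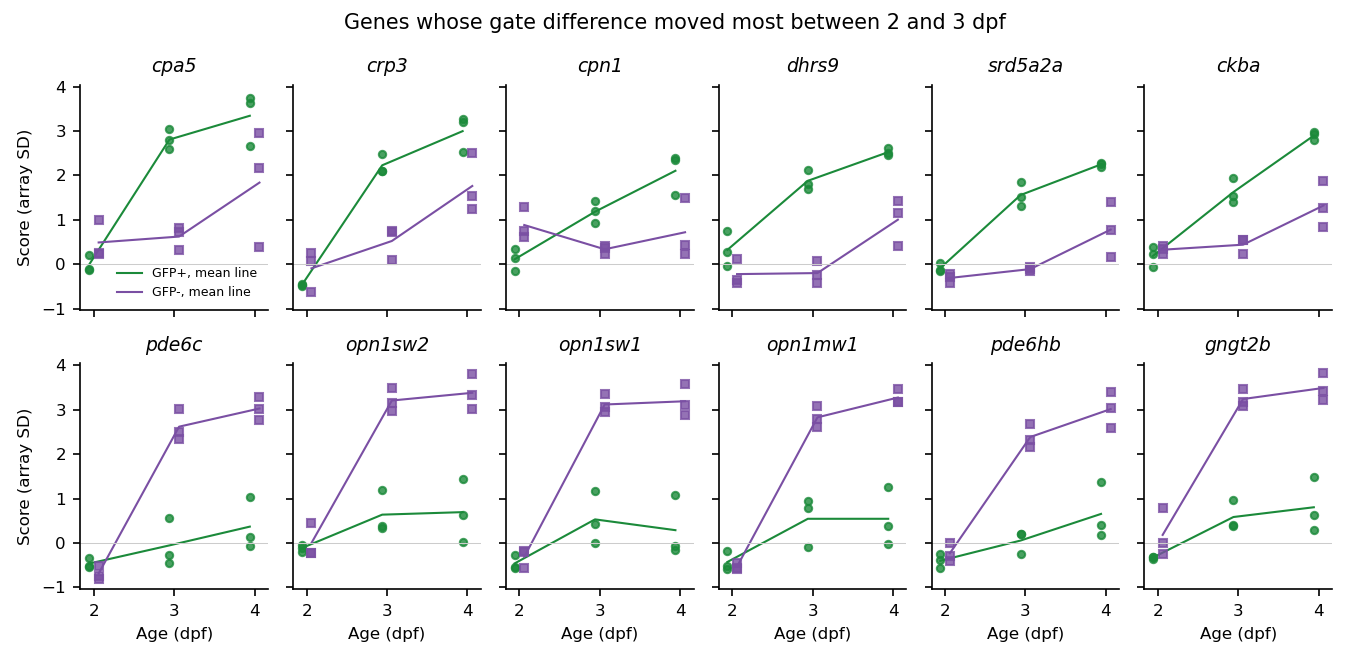
Scores (array SD) of the 12 genes whose GFP+ minus GFP- difference moved most between 2 and 3 dpf among those called, up (top row) and down (bottom row), on the GFP+ arrays (circles) and GFP- arrays (squares) at 2, 3 and 4 dpf, with lines through the means of 3. The photoreceptor genes of the bottom row are low in both sorts at 2 dpf and high in GFP- cells from 3 dpf.

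From 3 to 4 dpf the difference changed for 49 probe sets (0.316%), up in 38 (0.245%) and down in 11 (0.071%). This count rested on single arrays. It was 2 without GFP+ array 2 or 3 or GFP- array 1 of 3 dpf, and 2 without GFP+ array 3 of 4 dpf. It was 6 without GFP+ array 1 and 244 without GFP+ array 2 of 4 dpf. Without GFP- array 3 of 3 dpf it was 20, and without GFP- array 1 or 2 of 4 dpf it was 86 or 25. With the replicate block 95 were called, 34 up and 61 down, so that the larger side turned round. It also turned without GFP+ array 1 of 3 dpf, with 18 up and 23 down, and without GFP- array 2 of 4 dpf, with 12 up and 13 down. At 4 dpf the GAPDH 3' minus 5' score was 0.05, 0.692 and 0.029 in GFP+ and 0.451, 0.409 and 0.202 in GFP- cells. GFP+ array 2, whose removal gave 244, stood apart from its group, and the part of RNA quality in these moves was not tested. The tubulin gene tuba2 moved upward by 1.68 ± 0.27 (adjusted p = 0.0253), with 0.35, 0.28 and 0.27 in GFP+ and 2.12, 1.55 and 1.81 in GFP- cells at 3 dpf and 0.69, 0.61 and 0.85 in GFP+ and 0.85, 0.03 and 0.79 in GFP- cells at 4 dpf. It was not called without GFP+ array 2 or 3 of 3 dpf or GFP- array 1 of 3 dpf or GFP+ array 3 of 4 dpf (adjusted p 0.0578 to 0.0783). The synapsin gene syn1, of synaptic vesicles, moved by 1.52 ± 0.28 and was not called without GFP+ array 2 or 3 of 3 dpf or GFP- array 1 of 3 dpf or GFP+ array 1 or 3 of 4 dpf or GFP- array 2 of 4 dpf (adjusted p 0.0532 to 0.117). Downward, the G protein regulator gene rgs2 moved by -1.89 ± 0.35 and was not called without GFP+ array 2 or 3 of 3 dpf or GFP- array 1 or 3 of 3 dpf or GFP+ array 1 or 3 of 4 dpf or GFP- array 2 of 4 dpf (adjusted p 0.0511 to 0.117). The glutamine synthetase gene glulb moved by -1.2 ± 0.22 and was not called without GFP+ array 2 or 3 of 3 dpf or GFP- array 1 of 3 dpf or GFP+ array 1 or 3 of 4 dpf (adjusted p 0.0658 to 0.111) or for the mean of its probe sets (adjusted p 0.0694). Scores of glulb were 1.69, 1.95 and 2.29 in GFP+ and 1.54, 1.63 and 1.62 in GFP- cells at 3 dpf and 1.29, 1.52 and 1.15 in GFP+ and 2.25, 2.19 and 1.97 in GFP- cells at 4 dpf. Of the probe sets higher at 3 dpf, 1151 were also higher at 2 dpf and 1672 at 4 dpf. Of those lower, 852 were also lower at 2 dpf and 1192 at 4 dpf, and calls in opposite directions numbered 4 between 3 and 2 dpf and 6 between 3 and 4 dpf.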

How the data were processed

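RNA from sorted GFP+ and GFP- cells was measured on Affymetrix zebrafish arrays, 3 in each of 8 groups of sort and age. The deposited values are scores per probe set, made by the authors with RMA per the submitters' processing notes. In the deposited table every array has a median score of 0 and an SD of 1. No source used here gives the log base or says how the arrays were scaled, and scaling each array to equal spread hides any change in overall RNA. The 115 control probe sets were left out. A gene symbol was available for 10795 of the 15502 others, several symbols for 135 and none for 4572, from the platform annotation updated through RefSeq gene identifiers. Where a gene had several probe sets, the one with the highest mean score over the 24 arrays stood for it.

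limma 3.58.1 in R 4.3.3 fitted 8 group means to all 24 arrays, with moderated tests on 16 residual degrees of freedom and a prior worth 3.587. A call is a Benjamini-Hochberg adjusted p under 0.05 over all 15502 probe sets, two-sided, also for the change of the difference between ages. In a simulation of the comparison at 3 dpf on 15502 probe sets, 50 were changed at each of 0.5, 1, 1.5 and 2 array SD. Noise was drawn independently for every array. Of the 50 changed by 0.5 array SD 52% were recovered, with 94% at 1 and 98% at 2 and 6 false calls. The data had far more called probe sets, 4103, and the simulation held no effect shared by arrays of a replicate. These shares therefore need not hold for the data. With 3 arrays a group the number of arrays limits the precision.

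The members, the gene lists, the cell type markers and the tests were chosen with earlier results of these data known. The genes named are the 20 furthest each way at 3 dpf and the 6 furthest each way in each change, in both cases among those called, the cell type markers, and of each list the 2 to 6 furthest in its direction with those called the other way. The 20 each way were also limited to genes whose GFP+ and GFP- arrays did not overlap. Genes named as not called that are no markers, and further members of short counts, were chosen after their values were seen. Where a list's share is read against all genes, no test of the list was run.

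The series design text pairs 1 GFP+ with 1 GFP- sample in each replicate. The replicate numbers were taken as pairing samples only in the alternative fit called the replicate block. The main fit has no term for pairs, so p-values and calls given without mention of the block are unpaired. At 3 dpf the deviations of same-numbered arrays from their group means correlated at -0.044 to 0.178, and those of other pairs at -0.195 to 0.055. At 4 dpf, an age used in the changes, the correlations were 0.081, 0.312 and 0.3 for same-numbered arrays. Those of other pairs at 4 dpf were -0.297 to 0.173. Alternatives were a replicate block, quantile normalization, array weights, a trended robust prior, the 6 arrays of 3 dpf alone, averaging the probe sets of a gene, a minimum mean score, a minimum difference, and leaving out each array.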

Additional observations from a re-analysis of the deposited data

Results flagged for a closer look

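The GFP+ minus GFP- difference of 24 named genes differed between neighbouring ages by the interaction test of the limma fit. From 2 to 3 dpf it moved up (array SD, ± SE) for cpa5 by 2.69 ± 0.59, crp3 by 2.08 ± 0.41, cpn1 by 1.62 ± 0.37, dhrs9 by 1.53 ± 0.31, srd5a2a by 1.45 ± 0.29 and ckba by 1.33 ± 0.27. It moved down for pde6c by -2.9 ± 0.38, opn1sw2 by -2.46 ± 0.42, opn1sw1 by -2.44 ± 0.4, opn1mw1 by -2.39 ± 0.36, pde6hb by -2.16 ± 0.37 and gngt2b by -2.15 ± 0.39. Each difference at either age rests on 3 arrays of each sort, and 2 and 3 dpf share no array.

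From 3 to 4 dpf it moved up for tuba2 by 1.68 ± 0.27, syn1 by 1.52 ± 0.28, lhx9 by 1.22 ± 0.23, rundc3ab by 1.1 ± 0.22, pank1a by 1.05 ± 0.2 and negr1 by 1.04 ± 0.2. It moved down for s100z by -2.39 ± 0.49, rgs2 by -1.89 ± 0.35, socs1a by -1.3 ± 0.25, glulb by -1.2 ± 0.22, gnsa by -1.13 ± 0.23 and arhgef7a by -0.97 ± 0.19. Both changes use the same 6 arrays of 3 dpf. The scores of lhx9 were -0.43, -0.47 and -0.55 in GFP+ and 1.16, 0.77 and 0.83 in GFP- cells at 3 dpf and -0.44, -0.29 and -0.3 in GFP+ and 0.14, -0.6 and -0.02 in GFP- cells at 4 dpf. Of the other fits tried, 10 of 18 called lhx9, 6 of 18 rundc3ab, 8 of 18 pank1a, 8 of 17 negr1, 7 of 18 s100z, 8 of 17 socs1a, 8 of 18 gnsa and 8 of 18 arhgef7a. None of the 24 genes changed its direction in any of them.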

How the results depend on the processing

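The 20 named genes furthest each way at 3 dpf kept their direction and call in every alternative tried. Having been picked for the largest differences on the same arrays, they say little about genes with smaller differences. The 24 named changes between ages kept their direction, and over both sets 693 values stayed on their side of the threshold and 137, all of them changes, no longer passed it. Calls of list members that were lost or gained stand beside those genes. With array weights the probe sets that differed at 3 dpf rose in number from 4103 to 6445 (3483 higher, 2962 lower), and the changes from 2 to 3 dpf and from 3 to 4 dpf to 402 and 306. A minimum difference of 1 array SD left 1074, 66 and 23, and at 3 dpf the lower side was then the larger (465 higher, 609 lower). For the change from 3 to 4 dpf, 8 remained among probe sets with a mean score of at least 0, 25 after quantile normalization and 95 with the replicate block. That block also turned the larger side of this change, as given above. Of the genes named for their difference at 3 dpf, the block changed only the calls given with it, and it changed calls of list members not named here. Leaving out 1 array each gave 3102 to 3943 probe sets that differed at 3 dpf, all below 4103. It also gave 52 to 146 changes from 2 to 3 dpf and 2 to 244 from 3 to 4 dpf. It gave 19 to 33 higher genes of DNA replication and mitosis and 10 to 19 lower genes of skeletal muscle. In a fit of the 6 arrays of 3 dpf alone the higher genes numbered 7 instead of 4 for kidney and 10 instead of 5 for the proteasome, and the lower ones 4 instead of 2 for endothelium, 5 instead of 3 for Wnt and 2 instead of 4 for keratins. The causes were not tested. The small number of arrays and scores on an unknown log base limit all values, and a probe set near the lower end of its array cannot show a further decrease.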

Other observations

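Some of the 20 named genes furthest on the GFP- side have not been described above. The mitochondrial creatine kinase gene ckmt2a, which helps store energy as phosphocreatine, scored 0.01, -0.15 and -0.39 on the GFP+ arrays and 1.92, 2.88 and 2.2 on the GFP- arrays and differed by -2.51 ± 0.29 array SD (SE, n = 3 arrays in each sort, limma adjusted p = 3.61e-06). The cytosolic creatine kinase gene ckbb differed by -2.23 ± 0.27. Both kinases were lower in GFP+ cells, and gatm and gamt, the enzymes that make creatine, were higher. The paralog ckba scored 1.94, 1.4 and 1.54 against 0.22, 0.55 and 0.55 and was higher by 1.19 ± 0.19, though its difference was 0.17 on another probe set, not called. The kinases that handle nucleotides, guk1b and nme2a, differed by -2.28 ± 0.33 and -2.12 ± 0.24. The fatty acid elongase gene elovl4b, which acts in retina, differed by -2.23 ± 0.29, the photoreceptor regulator gene six7 by -2.16 ± 0.29, the rod transducin gene gnat1 by -2.11 ± 0.18 and the phosducin gene pdcb by -2.09 ± 0.21. The calcium buffer gene pvalb5 scored -0.19, -0.36 and 0.03 on the GFP+ arrays and 1.95, 1.87 and 1.8 on the GFP- arrays and differed by -2.05 ± 0.2 (limma adjusted p = 7.06e-07). On the GFP+ side the protease inhibitor gene a2m2h, related to alpha-2-macroglobulin of plasma, scored 2.25, 2.16 and 2.04 on the GFP+ arrays and -0.32, 0.09 and -0.3 on the GFP- arrays and differed by 2.33 ± 0.33 (limma adjusted p = 2.81e-05). Apart from ckba, which was not run under all of them, these genes kept their direction and call in every alternative tried.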
